A study of Mus musculus with 8 samples.

Results

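The genes described here are 10 known activators and repressors of the two-cell program of mouse embryonic stem cells (mESCs). They were taken by name for their known roles, with no value as a threshold, although earlier results of these data were known when the set was drawn up. The activators are *Dppa2* and *Dppa4*, and the repressors are *Chaf1a*, *Chaf1b*, *Kdm1a*, *Trim28*, *Rif1*, *Smchd1*, *Zmym2* and *Ehmt2*. All 10 were found by Ensembl identifier among the 55385 genes counted, and all 10 passed the filter on low counts that left 17445 genes for testing. Levels were high enough in the control libraries that no member depended on a treated group to pass.

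The study knocked down *Eftud2*, which encodes a GTPase of the U5 snRNP of the spliceosome, in R1 mESCs, a male mouse line, and measured poly(A) RNA by RNA-Seq. All 8 libraries came from wild-type R1 cells kept in N2B27 medium with 2i inhibitors and LIF. The paper gives the coating of the plates as either poly-L-ornithine with laminin, or fibronectin. All were infected with a lentivirus on 2 consecutive days, for some hours each, and then held under puromycin for 3 days. The groups were shRNA1 (3 libraries; a hairpin against the 3′ UTR of *Eftud2*), shRNA2 (3 libraries; a hairpin against its coding sequence) and nt-shRNA (2 libraries; a hairpin with no target), each library being labelled a biological replicate. The cells were infected pools of 1 line, and both hairpins were compared with the same 2 control libraries, so that the comparisons with nt-shRNA are not independent of each other.

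A small and changing share of cells in mESC cultures resembles the blastomeres of the early mouse embryo just after its genome is switched on, and expresses genes such as the *Zscan4* cluster together with MERVL retroelements. DPPA2 and DPPA4 bind each other and are needed for expression of *Dux*, the transcription factor that switches on this program. The repressors keep it closed by several routes, among them the assembly of histones on new DNA, the removal or addition of histone methyl groups, and silencing of retroelements. In RNA from whole cultures, a change in the share of cells in such a state and a change in RNA per cell cannot be told apart.

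Total counts lay between 19569525 and 29871048 per library, and 3 counts corresponded to between 0.105 and 0.148 CPM (a count per 1000000 counts of the library after TMM scaling, called normalized CPM below). *Eftud2* (chr11:102838473-102880985, GRCm38) measured 262 and 256 normalized CPM with nt-shRNA, 232, 229 and 225 with shRNA1 and 198, 202 and 235 with shRNA2. All 6 *Eftud2* hairpin libraries were below both controls, but the log2 fold change passed the test with shRNA2 (-0.29, adjusted p = 0.00122 by edgeR's quasi-likelihood test) and not with shRNA1 (-0.18, adjusted p = 0.0514). The shRNA1 value lay near the threshold and passed in 6 of 15 alternative settings, DESeq2 among them (adjusted p = 0.0487). By qPCR the paper reports a larger loss of *Eftud2* RNA with both hairpins than these counts show, and by western blotting less EFTUD2 protein. The 10 markers of embryonic stem cells were expressed in every library (summed level 7304 to 7908 normalized CPM), but single markers changed. With shRNA1, 4 rose and 2 fell, *Pou5f1* among the latter (0.783-fold). Among the 9 called with shRNA2, 6 rose, *Klf4* (2.49-fold) and *Nanog* (1.70-fold) among them. The other 3 fell, *Dppa5a* (0.513-fold), *Fgf4* (0.618-fold) and *Pou5f1* (0.82-fold). The shares of the 10 markers called were 60% with shRNA1 and 90% with shRNA2, against 30.9% and 55.9% of all genes tested. The sum of 7 fibroblast markers was between 4.599 and 5.02 with nt-shRNA and between 6.28 and 7.57 with the *Eftud2* hairpins. *Col1a2*, which passed the filter only through the hairpin libraries, was the only one of 3 tested to be called, and *Dcn* and *Lum* were at or near 0. When scaled to library size alone, all 3 were called higher with shRNA1 and 2 with shRNA2. The sum of 7 endoderm markers was 44.5 and 45.95 with nt-shRNA, between 42.6 and 48.8 with shRNA1 and between 35.8 and 41.6 with shRNA2, where *Gata6* was called lower (0.593-fold). The sum of 7 neural markers was between 80.1 and 82.4 with nt-shRNA, between 69.9 and 79.0 with shRNA1 and between 60.6 and 70.9 with shRNA2. *Nes* carried this difference (log2 fold change -0.45 and -1.38 with shRNA1 and shRNA2, both called), while *Tubb3* rose with both hairpins (0.62 and 1.58) and *Map2* with shRNA1 (0.84). The part of these markers in the results below was not tested.

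*Trim28* and *Ehmt2* were the repressors called with both hairpins, and they went in opposite directions. Their promoter sequences are shown for that reason, as RefSeq gives them on GRCm38.p6, from 250 bases before a transcript start to 50 bases after it. For *Trim28* that start is 13024152, which is also the start of the GENCODE transcript Trim28-201; the gene span given below begins further upstream, at 12999114, with the transcript Trim28-210. *Trim28* is at chr7:13023902-13024201 and the first of 2 entries for *Ehmt2* at chr17:34898224-34898523, both on the plus strand. Capitals mark GC boxes (GGGCGG on either strand) and E-boxes (CACGTG, which reads the same on both strands).
Trim28: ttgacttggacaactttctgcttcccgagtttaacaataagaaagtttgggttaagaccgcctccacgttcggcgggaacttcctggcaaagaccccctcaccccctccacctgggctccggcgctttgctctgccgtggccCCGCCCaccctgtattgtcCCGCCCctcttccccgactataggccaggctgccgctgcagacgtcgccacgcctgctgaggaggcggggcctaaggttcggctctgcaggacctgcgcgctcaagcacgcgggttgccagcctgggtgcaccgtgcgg
Ehmt2: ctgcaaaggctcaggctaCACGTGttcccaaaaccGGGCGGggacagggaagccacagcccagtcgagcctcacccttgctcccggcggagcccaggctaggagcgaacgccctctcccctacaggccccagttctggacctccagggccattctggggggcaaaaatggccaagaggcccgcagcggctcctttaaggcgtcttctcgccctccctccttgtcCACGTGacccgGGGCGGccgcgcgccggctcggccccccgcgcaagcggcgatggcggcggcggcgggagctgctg
The *Trim28* sequence held 2 GC boxes and no E-box, and the *Ehmt2* sequence held 2 of each. Among all 32851 promoter entries of this length, 35.7% held a GC box and 7.15% an E-box. The motifs were picked after the sequences had been looked at, and a match is a description of letters only. Promoter entries were matched for 7 of the 10 members, all but *Dppa2*, *Dppa4* and *Rif1*.

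With shRNA1, 4 of the 10 members passed the test, *Dppa2* and *Trim28* higher and *Chaf1a* and *Ehmt2* lower than nt-shRNA. Over all 17445 genes tested 30.9% passed, 13.8% higher and 17.1% lower. With shRNA2, 7 members passed, *Dppa2*, *Trim28*, *Kdm1a* and *Rif1* higher and *Chaf1b*, *Smchd1* and *Ehmt2* lower. The share over all genes was then 55.9%, with 27.2% higher and 28.7% lower, so a call alone does not set a member apart from other genes in these libraries. Between the hairpins, 6 members passed, against 35.6% of all genes (16.9% higher and 18.7% lower with shRNA2 than with shRNA1). Across the 10 members the median change on the log2 scale was 0.05 with shRNA1 and 0.04 with shRNA2, against -0.01 and 0.00 over all genes. Libraries of the 2 groups did not overlap for 5 members with shRNA1, 9 with shRNA2 and 8 between hairpins, while the same held for 56.8%, 71.4% and 47.8% of all genes. Scaling to library size alone moved the median of all genes in the shRNA1 comparison to 0.11, and the calls there from 2407 higher and 2981 lower to 4101 higher and 1713 lower. The members called with shRNA1 then numbered 4 higher and 1 lower, in place of 2 and 2. Leaving out single libraries also moved the shRNA1 counts widely, for members and for all genes, and those ranges are given with the processing below.

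**Figure D1:**
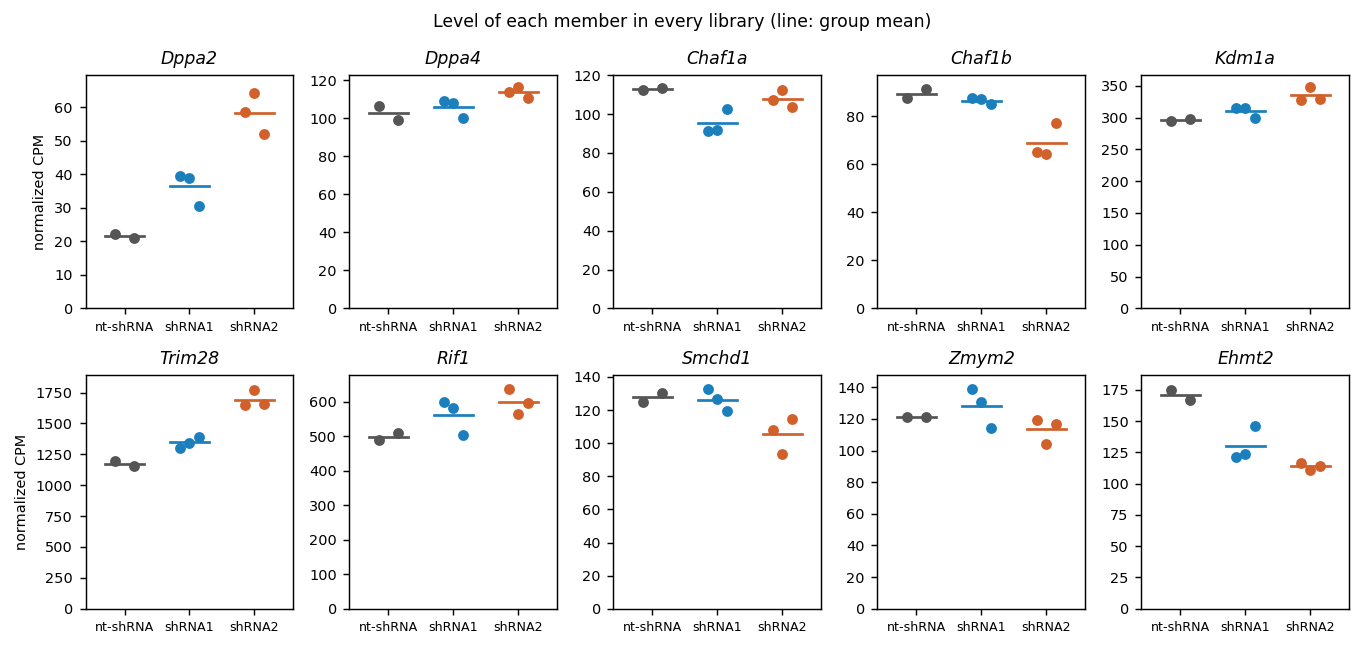
Normalized CPM (linear axes from 0) of each of the 10 genes in every library, with a point per library and a line at the mean of nt-shRNA (2 libraries), shRNA1 (3) and shRNA2 (3). The means of *Dppa2* are 21.6, 36.4 and 58.2 normalized CPM, and those of *Ehmt2* 170.8, 130.5 and 113.8.

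*Dppa2* and its partner *Dppa4* are neighbours on chromosome 16 (GRCm38, plus strand), *Dppa4* at chr16:48283733-48294237 and *Dppa2* at chr16:48303908-48319723, with 9670 bases and 0 annotated genes between them. *Dppa2* changed far more than *Dppa4*, although both had their highest levels with shRNA2 and followed each other over the 8 libraries (Pearson r = 0.88, as a description). *Dppa2* measured 22.1 and 21.0 normalized CPM with nt-shRNA, 39.6, 39.0 and 30.6 with shRNA1, and 58.5, 64.2 and 52.0 with shRNA2. The 3 groups were fully separate, with all shRNA2 libraries above all shRNA1 libraries and these above both controls. The rise was 1.68-fold with shRNA1 (log2 fold change 0.75, 95% confidence interval 0.52 to 0.98, adjusted p = 4.2e-05 by edgeR) and 2.70-fold with shRNA2 (1.43, 1.21 to 1.66, adjusted p = 3.1e-09). Of all genes tested, 92.8% had a lower log2 fold change than *Dppa2* with shRNA1 and 95.8% with shRNA2. The direct comparison of the hairpins gave a log2 fold change of 0.68 (0.49 to 0.88, adjusted p = 2.2e-05). *Dppa2* passed in all 3 comparisons under each of the 15 alternative settings.

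*Dppa4* measured 106 and 99.2 normalized CPM with nt-shRNA, 109, 108 and 101 with shRNA1, and 114, 116 and 111 with shRNA2. The shRNA1 libraries overlapped the controls, and the shRNA2 libraries lay above them by a small margin. Its log2 fold change was 0.04 with shRNA1 (-0.09 to 0.18, adjusted p = 0.634) and 0.15 with shRNA2 (0.02 to 0.28, adjusted p = 0.0532), neither past the threshold. The shRNA2 value sat near the threshold and passed in 6 of the 15 alternatives, without shRNA1 replicate 3 (adjusted p = 0.0310) and without shRNA2 replicate 3 (adjusted p = 0.0446) among them.

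Taken per gene length, the log2 ratio of *Dppa2* to *Dppa4* within a library does not depend on how libraries are scaled. It was -2.82 and -2.80 with nt-shRNA, -2.02, -2.03 and -2.27 with shRNA1, and -1.52, -1.42 and -1.65 with shRNA2. The groups did not overlap, and the mean ratio rose by 0.70 and 1.28 on the log2 scale over nt-shRNA with shRNA1 and shRNA2. An exact two-sided permutation test over libraries gave p = 0.1 for each, the smallest value this design allows (0.15 when adjusted over 6 ratio tests).

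**Figure D2:**
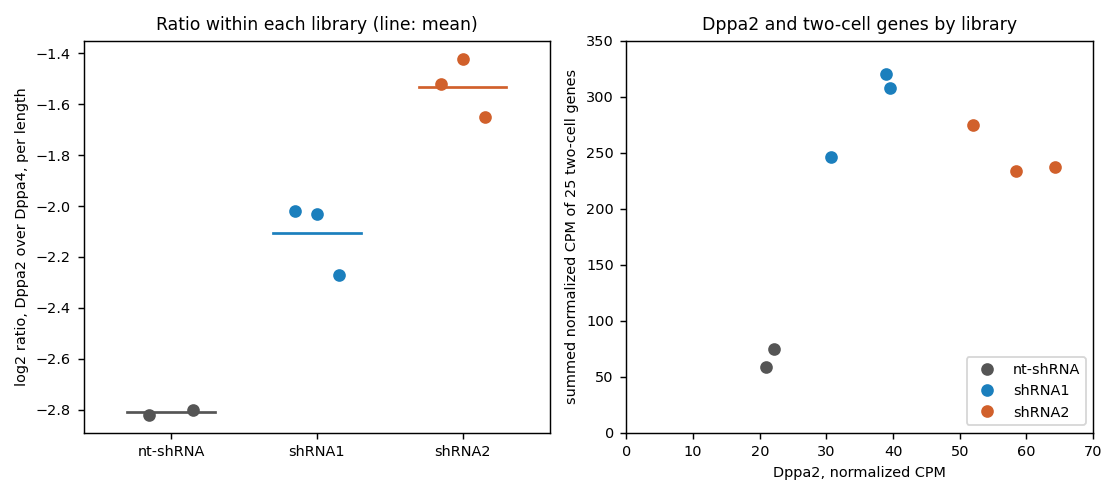
Left, the log2 ratio of *Dppa2* to *Dppa4* per gene length in each library, with a line at the group mean. Right, the normalized CPM of *Dppa2* in each library against the summed normalized CPM of 25 two-cell genes; the shRNA2 libraries lie furthest right for *Dppa2* (52.0 to 64.2) but between 233.6 and 274.9 for the sum, against 246.4 to 320.1 with shRNA1.

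*Chaf1a* and *Chaf1b* encode the large and middle subunits of CAF-1, the chaperone that loads histones H3 and H4 onto DNA behind the replication fork. A different subunit was called lower with each hairpin. *Chaf1a* (chr17:56040439-56072289) measured 112 and 114 normalized CPM with nt-shRNA, 91.2, 91.9 and 103 with shRNA1, and 107, 113 and 103 with shRNA2. With shRNA1 all 3 libraries were below the controls, and with shRNA2 the groups overlapped. The change on the log2 scale was -0.24 with shRNA1 (-0.38 to -0.10, adjusted p = 0.00902 by edgeR) and -0.07 with shRNA2 (-0.21 to 0.07, adjusted p = 0.405). The shRNA1 call was lost without shRNA1 replicate 2 (adjusted p = 0.0519), without nt-shRNA replicate 1 (0.0600), without nt-shRNA replicate 2 (0.0707), and when scaled to library size alone (-0.13, adjusted p = 0.137). Of the 8854 exon bases of *Chaf1a*, 4648 (52.5%) overlap exons of *Ubxn6* on the other strand, and the counting, which used no strand, left out fragments shared by both. For *Ubxn6* itself the values were 0.08 on the log2 scale with shRNA1 (adjusted p = 0.681) and 0.18 with shRNA2 (adjusted p = 0.266).

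*Chaf1b* (chr16:93883901-93906115) measured 87.3 and 91.3 normalized CPM with nt-shRNA, 87.3, 87.1 and 84.8 with shRNA1, and 65.0, 64.2 and 77.0 with shRNA2. It was below every other library in all 3 shRNA2 libraries. The log2 fold change was -0.38 with shRNA2 (-0.53 to -0.22, adjusted p = 2.6e-04 by edgeR) and -0.05 with shRNA1 (-0.20 to 0.11, adjusted p = 0.658), and the fall with shRNA2 kept its call in all 15 alternatives. The hairpins differed for both subunits when compared directly, at 0.18 for *Chaf1a* (0.05 to 0.30, adjusted p = 0.0290) and -0.33 for *Chaf1b* (-0.47 to -0.19, adjusted p = 9.5e-04). The *Chaf1a* difference is the less firm, since it no longer passed in 6 of 15 alternatives: without replicate 1 or 2 of either hairpin (adjusted p from 0.0720 to 0.118), with library size alone (0.0553) and with no filter on low counts (0.0703). The log2 ratio of *Chaf1a* to *Chaf1b* changed by -0.20 with shRNA1 and by 0.31 with shRNA2 (exact two-sided permutation p = 0.2 for each, adjusted p = 0.2), and differed by 0.51 between the hairpins (p = 0.1, the smallest possible, adjusted p = 0.15).

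*Trim28* encodes the scaffold that KRAB zinc finger proteins recruit to retroelements, where it brings in the H3K9 methyltransferase SETDB1. It rose with both hairpins. The gene (chr7:12999114-13031035) measured 1197 and 1152 normalized CPM with nt-shRNA, 1302, 1344 and 1391 with shRNA1, and 1645, 1772 and 1659 with shRNA2. The 3 groups did not overlap. The change was 1.15-fold with shRNA1 (log2 fold change 0.20, 0.07 to 0.33, adjusted p = 0.0207 by edgeR) and 1.44-fold with shRNA2 (0.53, 0.40 to 0.66, adjusted p = 8.7e-07), with a difference between hairpins of 0.33 (0.22 to 0.45, adjusted p = 1.7e-04). The smaller rise with shRNA1 lost its call without shRNA1 replicate 2 (adjusted p = 0.0506), without nt-shRNA replicate 1 (0.0642) and without nt-shRNA replicate 2 (0.160), while the rise with shRNA2 kept it in all 15 alternatives.

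*Ehmt2* encodes G9a, which adds methyl groups to lysine 9 of histone H3, and it was the member that fell furthest with either hairpin. It lies at chr17:34898469-34914052. *Ehmt2* measured 175 and 167 normalized CPM with nt-shRNA, 121, 124 and 146 with shRNA1, and 116, 111 and 115 with shRNA2. Every library with an *Eftud2* hairpin was lower than the 2 controls. On the log2 scale the change was -0.39 with shRNA1 (-0.54 to -0.24, adjusted p = 4.5e-04 by edgeR), and with shRNA2 it was -0.59 (-0.74 to -0.43, adjusted p = 1.4e-06), a level 0.666 times the control. Both calls held in all 15 alternatives. The further fall from shRNA1 to shRNA2 (-0.20, -0.34 to -0.06, adjusted p = 0.0242) was lost without shRNA1 replicate 3 (-0.11, adjusted p = 0.144) and without shRNA2 replicate 2 (adjusted p = 0.0740).

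*Kdm1a* encodes LSD1, which removes methyl groups from lysine 4 of histone H3. Its changes were small. The gene (chr4:136550540-136602723, minus strand) measured 295 and 298 normalized CPM with nt-shRNA, 315, 315 and 300 with shRNA1, and 328, 347 and 330 with shRNA2. The groups were separate, but shRNA1 replicate 3 was close to the controls. On the log2 scale *Kdm1a* changed by 0.06 with shRNA1 (-0.06 to 0.18, adjusted p = 0.443 by edgeR) and 0.18 with shRNA2 (0.05 to 0.30, adjusted p = 0.0152). The shRNA1 value passed in 1 of 15 alternatives, library size alone (0.18, adjusted p = 0.0235 by edgeR). The shRNA2 call was lost without nt-shRNA replicate 1 (adjusted p = 0.102), without nt-shRNA replicate 2 (0.0725) and with no filter on low counts (0.0545). The hairpins differed by 0.11 (0.00 to 0.22, adjusted p = 0.0971).

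**Figure D3:**
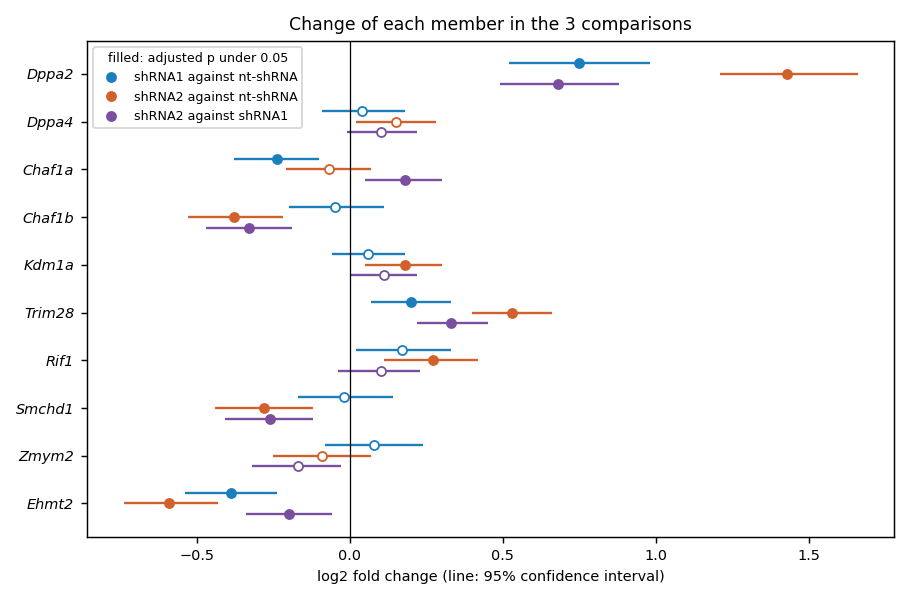
Log2 fold change of each of the 10 genes in the 3 comparisons, with 95% confidence intervals as lines and filled points where the adjusted p was under 0.05 by edgeR's quasi-likelihood test. *Dppa2* stands at 0.75 and 1.43 with shRNA1 and shRNA2, *Ehmt2* at -0.39 and -0.59.

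*Rif1*, *Smchd1* and *Zmym2* complete the repressors. *Rif1*, a regulator of replication timing that also restrains *Zscan4* and MERVL (chr2:52072832-52122383), measured 487 and 509 normalized CPM with nt-shRNA, 598, 581 and 504 with shRNA1, and 638, 565 and 596 with shRNA2. It was above both controls in all libraries with an *Eftud2* hairpin except shRNA1 replicate 3. Its log2 fold change was 0.17 with shRNA1 (0.02 to 0.33, adjusted p = 0.0831 by edgeR) and 0.27 with shRNA2 (0.11 to 0.42, adjusted p = 0.00460). The shRNA1 value passed in 5 of 15 alternatives, among them library size alone (adjusted p = 0.00699), dropping the filter (0.0451), a minimum of 10 counts in each library (0.0477) and the fit without shRNA1 replicate 3 (0.24, adjusted p = 0.00648). Without nt-shRNA replicate 1 the shRNA2 value was 0.23 and did not pass (adjusted p = 0.0564). The direct difference between hairpins was 0.10 (-0.04 to 0.23, adjusted p = 0.271).

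*Smchd1*, a non-canonical SMC protein known for its part in X inactivation and as a repressor of *Dux*, was lower with shRNA2 than in both other groups. The gene (chr17:71344489-71475343, minus strand) measured 125 and 131 normalized CPM with nt-shRNA, 133, 127 and 120 with shRNA1, and 108, 93.3 and 115 with shRNA2. The shRNA2 libraries were below all others, and the shRNA1 libraries overlapped the controls. The log2 fold change was -0.28 with shRNA2 (-0.44 to -0.12, adjusted p = 0.0041 by edgeR) and -0.02 with shRNA1 (-0.17 to 0.14, adjusted p = 0.90), and -0.26 between the hairpins (-0.41 to -0.12, adjusted p = 0.0058). *Zmym2*, a SUMO-binding zinc finger protein that associates with the LSD1-CoREST complex (chr14:56886653-56962701), passed in no comparison. It measured 121.2 and 121.4 normalized CPM with nt-shRNA, 139, 131 and 115 with shRNA1, and 120, 104 and 117 with shRNA2. The shRNA1 libraries lay on both sides of the controls, and the shRNA2 libraries lay below them, replicate 2 furthest. Its log2 fold change was 0.08 with shRNA1 (-0.08 to 0.24, adjusted p = 0.474) and -0.09 with shRNA2 (-0.25 to 0.07, adjusted p = 0.314), and its difference between hairpins of -0.17 (-0.32 to -0.03, adjusted p = 0.0612) passed in 4 of 15 alternatives, among them library size alone (adjusted p = 0.0405), dropping the filter (0.0184) and the fit without shRNA1 replicate 3 (-0.25, adjusted p = 0.00759).

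Levels can be compared between genes only per length, here that of all annotated exons of a gene and not of the transcripts expressed. The order of the genes therefore rests in part on the annotation. In normalized CPM per kilobase of exon, *Trim28* was highest with nt-shRNA at 282, followed by *Dppa4* (61.8), *Kdm1a* (57.2), *Rif1* (47.4), *Ehmt2* (31.1), *Chaf1b* (19.1), *Zmym2* (15.4), *Chaf1a* (12.7), *Dppa2* (8.80) and *Smchd1* (6.39). No neighbours in that order overlapped between the 2 control libraries. *Chaf1a* would measure 26.8, 22.7 and 25.6 with nt-shRNA, shRNA1 and shRNA2 if divided by the 4206 exon bases that it shares with no other gene, in place of 12.7, 10.8 and 12.2. *Dppa2* moved from 9th place with nt-shRNA to 8th with shRNA1 (14.9) and 5th with shRNA2 (23.8, range 21.3 to 26.2), where it lay just above *Ehmt2* (20.7, range 20.2 to 21.2). With *Chaf1a* taken per unshared base, *Dppa2* was 9th, 9th and 6th, and with shRNA2 its libraries overlapped those of *Chaf1a* (24.6 to 26.7). With shRNA1, *Dppa4* overlapped *Kdm1a* and *Zmym2* overlapped *Dppa2*, and with shRNA2 *Dppa4* overlapped *Kdm1a* and *Chaf1b* overlapped *Zmym2*.

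**Figure D4:**
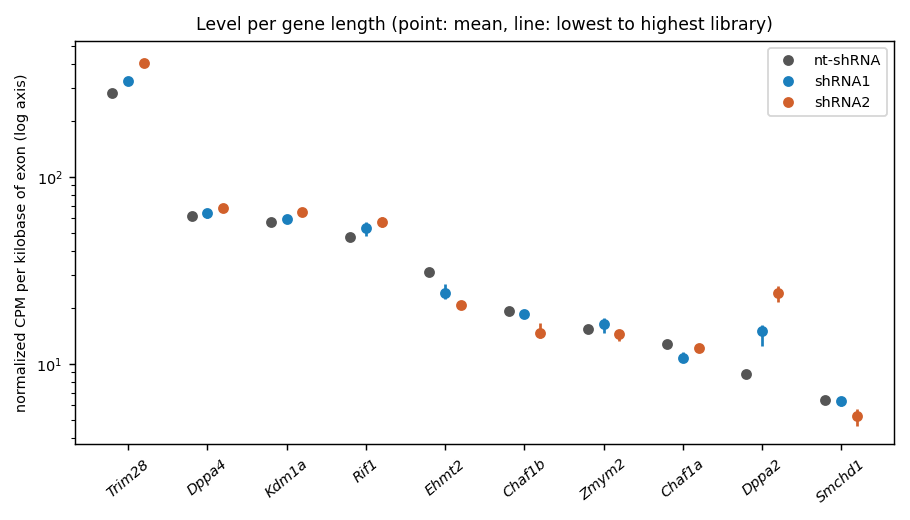
Level per exon length of the 10 genes on a log axis, ordered by their level with nt-shRNA, with the mean as a point and a line from the lowest to the highest library of each group. *Dppa2* rises from 8.80 with nt-shRNA to 23.8 with shRNA2, past *Zmym2*, *Chaf1b* and *Ehmt2*; *Chaf1a* is drawn per full exon length, which understates it.

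The third shRNA1 library stood nearest to the control mean for 7 of the 10 members, *Dppa2*, *Dppa4*, *Chaf1a*, *Kdm1a*, *Rif1*, *Zmym2* and *Ehmt2*. The same library was the nearest of its group for 69.0% of the 5388 genes called with shRNA1. Members were counted whether called or not, so these shares do not cover the same kind of genes. With shRNA2, replicates 1, 2 and 3 were nearest for 4, 2 and 4 members, and for 24.2%, 20.1% and 55.8% of called genes.

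The genes that the members act on were set beside them. A list of 26 two-cell genes, of which 25 were found and 23 passed the filter, included the *Zscan4*, *Usp17l*, *Tdpoz* and *Tcstv* families, whose near-identical copies are uncertain because fragments with several alignments were left out. The 25 genes summed to 74.6 and 58.5 normalized CPM with nt-shRNA, 308, 320 and 246 with shRNA1, and 234, 238 and 275 with shRNA2. With shRNA1 all 23 tested genes rose (median 2.16 on the log2 scale), and with shRNA2 22 of 23 rose (median 1.86), all but *Usp17ld*. *Zscan4b*, *Tdpoz3*, *Tdpoz4* and *Gm4340* did not reach the cutoff of the filter (0.455 CPM) in both controls. They were tested only through the hairpin libraries, so that the filter itself favoured a rise in them. Without these 4 the counts were 19 of 19 and 18 of 19 (medians 2.16 and 2.01), against 13.8% and 27.2% of all genes called higher. Scaling to library size alone gave the same counts. *Gm2016* and *Gm5662* had the smallest adjusted p with shRNA2, with log2 fold changes of 2.70 (adjusted p = 1.1e-10) and 2.34 (adjusted p = 1.4e-10), and of 2.44 and 2.24 with shRNA1. Between the hairpins, 14 of the 23 were lower with shRNA2 and 3 higher, with a median of -0.54 (12 lower and 2 higher of 19 without the same 4 genes), against 18.7% and 16.9% of all genes. The summed levels of the hairpins overlapped, and *Gm2016* (0.26, adjusted p = 0.0752) and *Gm5662* (0.10, adjusted p = 0.467) did not pass between them. *Dppa2* was higher with shRNA2 by 0.68 in the same comparison, and any link between it and the list was not tested. *Duxf3*, the *Dux* gene of this annotation, which was singled out after its values were seen, measured 0.71 and 0.52 normalized CPM with nt-shRNA, 1.26, 1.43 and 1.21 with shRNA1, and 0.47, 0.36 and 0.60 with shRNA2. It rose with shRNA1 (log2 fold change 1.07, adjusted p = 0.00994 by edgeR), did not pass with shRNA2 (-0.37, adjusted p = 0.389) and was lower with shRNA2 than with shRNA1 (-1.44, adjusted p = 8.6e-04). These are low levels, and *Dux* lies in a repeated array.

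Other described activators of two-cell-like cells moved in both directions. Of 9 tested, 6 rose and 1 fell with shRNA1, and 4 rose and 1 fell with shRNA2. That is 77.8% called with shRNA1, against 30.9% of all genes, and 55.6% with shRNA2, close to the 55.9% of all genes. *Tbx3*, a T-box factor of naive cells, rose from a range of 169.8 to 172.1 normalized CPM to between 308 and 346 with shRNA2 (log2 fold change 0.91, adjusted p = 6.9e-09 by edgeR). *Gata2*, which encodes a GATA factor, fell from between 10.2 and 10.4 to between 3.83 and 4.96 (-1.24, adjusted p = 1.5e-06).

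The lists of partners of the repressors were called with shRNA1 and shRNA2, against 30.9% and 55.9% of all genes, in 10% and 60% (histone chaperones), 25% and 41.7% (TRIM28-SETDB1), 6.67% and 73.3% (LSD1 and G9a), 33.3% and 55.6% (PRC1.6 and SUMO) and 41.7% and 83.3% (other repressors). Of 10 other histone chaperones, 1 rose with shRNA1, while 4 rose and 2 fell with shRNA2. *Nasp*, which holds a reserve of H3 and H4, rose by 0.48 on the log2 scale with shRNA2 (adjusted p = 3.0e-06 by edgeR) and *Asf1a*, which hands H3 and H4 to CAF-1 and HIRA, by 0.54 (adjusted p = 4.9e-05), while *Rbbp4*, the small CAF-1 subunit, had -0.16 (adjusted p = 0.0210). With library size alone, 3 of the 10 were higher with shRNA1 and 5 with shRNA2, and none was lower with either. Of 12 genes of the TRIM28-SETDB1 pathway, 3 rose with shRNA1 and 5 with shRNA2, and none fell with either. With library size alone these were 6 and 9. *Zfp809*, a KRAB zinc finger protein that binds a retroviral sequence, rose by 0.68 and 0.74 with shRNA1 and shRNA2 (adjusted p = 4.1e-05 and 3.4e-06), and *Setdb1* rose by 0.31 and 0.45 (adjusted p = 9.4e-04 and 6.2e-06).

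Of 15 partners of LSD1 and G9a, 1 rose with shRNA1, and 8 rose and 3 fell with shRNA2. With library size alone as the scaling, the shRNA1 count became 8 higher, and the shRNA2 split 9 higher and 1 lower. *Gse1*, a subunit of LSD1-CoREST complexes, changed by 0.65 on the log2 scale with shRNA2 (adjusted p = 8.6e-06 by edgeR), *Zfp644*, a zinc finger partner of G9a, 0.60 (adjusted p = 3.0e-05), and *Phf21a*, which encodes the H3K4 reader BHC80, -0.40 (adjusted p = 3.0e-04). Of 18 genes of the PRC1.6 and SUMO pathways, 1 rose and 5 fell with shRNA1, and 5 rose and 5 fell with shRNA2. With library size alone, the shRNA1 split was 5 higher and 3 lower. The SUMO ligase gene *Pias2* (0.82, adjusted p = 2.9e-08) and the PRC1.6 subunit gene *E2f6* (0.52, adjusted p = 1.0e-05) were the list's strongest calls with shRNA2. Of 12 other repressors of the program, 3 rose and 2 fell with shRNA1, and 9 rose and 1 fell with shRNA2. With library size alone, 5 rose and 2 fell with shRNA1. *Myc* passed the filter only through the hairpin libraries, and without it 8 rose and 1 fell with shRNA2. *Tet2*, an enzyme that oxidises methylated DNA, rose by 1.57 with shRNA2 (adjusted p = 2.9e-10), *Zfp42* by 0.54 (adjusted p = 1.1e-06), and *Uhrf1*, a guide of maintenance DNA methylation, had -0.44 (adjusted p = 1.4e-05).

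**Figure D5:**
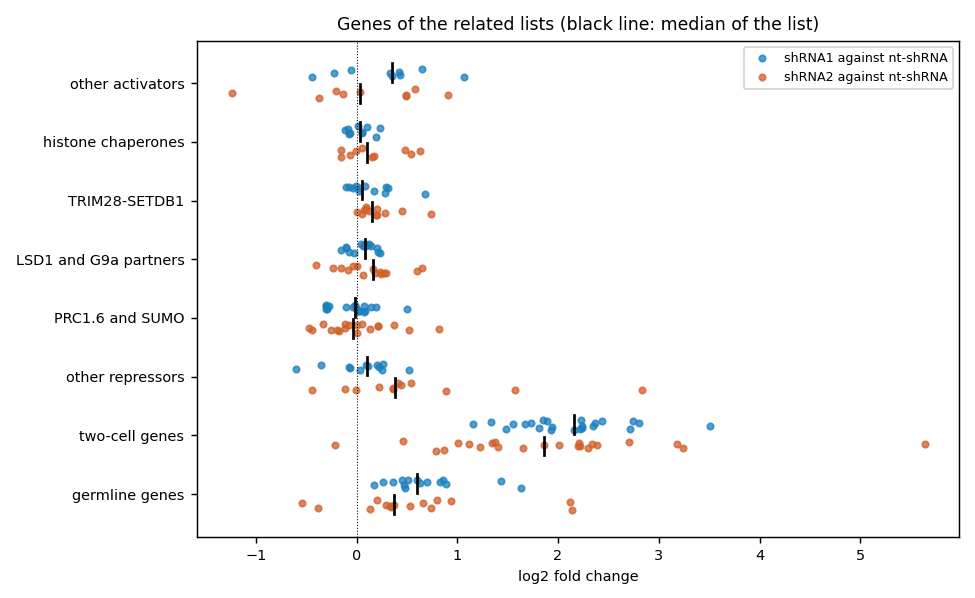
Log2 fold change of each tested gene of 8 lists with shRNA1 and shRNA2 against nt-shRNA, a point per gene, with a black line at the median of the list. The two-cell genes stand apart, with medians of 2.16 and 1.86, while the lists of partners and other repressors have medians between -0.04 and 0.38.

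For each member, the gene whose log2 CPM followed it most closely over the 8 libraries was looked up among all tested genes, as a description. *Dppa2* was followed by *Heatr1* (Pearson r = 0.999), *Trim28* by *Hcfc1* (0.996), *Ehmt2* by *Tmem161a* (0.995), *Chaf1b* by *Vax2* (0.998) and *Smchd1* by *Alg13* (0.996). The other members were followed by *Strap* (*Dppa4*, 0.991), *Tmbim1* (*Chaf1a*, 0.984), *Trappc6b* (*Kdm1a*, 0.991), *March7* (*Rif1*, 0.993) and *Nae1* (*Zmym2*, 0.983). Such values are common here, since the libraries share 3 groups: 10.9% of all tested genes had an r over 0.9 with *Dppa2* and 10.4% with *Ehmt2*, but 0.430% with *Zmym2*.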

How the data were processed

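Total poly(A) RNA of 8 libraries was sequenced in pairs. The authors aligned the reads to GRCm38 with STAR and assigned fragments to GENCODE M24 exons by featureCounts 1.6.2 (no strand, several alignments and overlaps left out). They deposited raw counts per gene with a gene length in bases. Lengths were used here for levels per kilobase. Symbols were taken from GENCODE M21 through Ensembl identifiers, which gave 55144 of 55385 genes a name.

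Counts were analysed with edgeR 4.0.16 in R 4.3.3: filterByExpr (minimum count 10), TMM, and glmQLFit and glmQLFTest over all 8 libraries, with 1 coefficient for each group and without a block. P-values were adjusted by Benjamini-Hochberg over all 17445 genes, and called under 0.05. The standard error and 95% confidence interval of a log2 fold change were taken from the test statistic. The biological coefficient of variation was 0.0638. Data were simulated for shRNA2 against nt-shRNA, with 17064 genes tested and only well expressed genes changed. There, 100 of 100 genes changed by a log2 change of 1 and 100 of 100 changed by 2 were called. Of the calls, 6.54% were false. All members but *Dppa2* changed by less than 1 on that scale, and the recovery of such smaller changes was not tested. Chi-square values per gene between replicates of a group were 3.12 to 12.0, highest between the 2 control libraries, so no replicate repeated another of its group. Counts carry no molecular identifiers, so the floor of 3 counts covers counting error only.

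The 10 members and the lists were chosen with earlier results of these data known. The genes named are all members, *Eftud2*, from each list the 2 genes lowest in adjusted p with shRNA2, the called gene furthest against the list's median, and for each member its closest follower (log2 CPM, prior count 2). *Duxf3*, *Usp17ld*, *Zscan4b*, *Tdpoz3*, *Tdpoz4*, *Gm4340*, *Myc*, *Magea5*, *Magea8*, *Ubxn6* and the single cell type markers fall outside this rule and were named after their values were seen. Alternatives were DESeq2 1.42.0, its size factors, scaling to library size alone, dropping the filter, a stricter filter of at least 10 counts per library, a fit of only the 2 groups compared, the replicate number as a block, and each library left out. Figures were drawn with matplotlib 3.10.9 in Python 3.11.15. Splicing was not analysed here.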

Additional observations from a re-analysis of the deposited data

How the results depend on the processing

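Over the 10 members and *Eftud2* in 3 comparisons, 445 values under the 15 alternatives kept direction and side of the threshold, 23 newly passed, 19 no longer passed and 8 changed sign. No sign change was of a value that had passed. With shRNA1 they were *Chaf1b* (0.07) and *Smchd1* (0.10) with library size alone, *Smchd1* with at least 10 counts in every library (0.02), with only the groups compared (0.01), without shRNA1 replicate 3 (0.02) and without nt-shRNA replicate 2 (0.02), and *Dppa4* without nt-shRNA replicate 2 (-0.01). Over the fits leaving out 1 library, *Smchd1* ranged from -0.05 to 0.02 and *Dppa4* from -0.01 to 0.09. With shRNA2 it was *Chaf1a* with library size alone (0.02). The cause was not tested, except that library size alone moves the median of all genes upward against nt-shRNA (to 0.11 with shRNA1 and 0.09 with shRNA2). With library size alone, members called with shRNA1 were 4 higher and 1 lower, and all genes 4101 higher and 1713 lower.

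Leaving out each library in turn, members called with shRNA1 numbered 2 to 5 (1 to 3 higher, 1 to 2 lower) and all genes 2948 to 5903 (1248 to 2649 higher, 1700 to 3254 lower). With shRNA2 members numbered 5 to 8 (2 to 5 higher, 3 lower) and all genes 7719 to 10017. Between hairpins members numbered 4 to 6. The lowest counts of all genes with shRNA1 came without nt-shRNA replicate 1.

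Replicates carry numbers in the labels. Deviations of same-numbered libraries correlated only between -0.03 and 0.07, and not every library correlated best with its own number. With 2 or 3 libraries in a group, these values cannot show whether same-numbered libraries were handled together. For qPCR, the paper set each knockdown replicate against a matching nt-shRNA replicate. A replicate block gave 5, 8 and 7 members called in shRNA1, shRNA2 and hairpin comparisons, and 6018, 10034 and 6518 genes, with *Rif1* in shRNA1 (0.21, adjusted p = 0.0332 by edgeR), *Dppa4* in shRNA2 (0.18, adjusted p = 0.0207) and *Zmym2* between hairpins (-0.17, adjusted p = 0.0446) added. With only 2 control libraries, small changes rest on either one.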

Other observations

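Germline genes, which are kept silent by some of the same repressors, also moved. Of 16 genes, 15 were tested, and 13 rose with shRNA1 (median log2 fold change 0.60), while 12 rose and 2 fell with shRNA2 (median 0.37). The shares called were 86.7% and 93.3%, against 30.9% and 55.9% of all genes. *Magea5* and *Magea8* passed the filter only through the hairpin libraries, so that the filter itself favoured a rise in them. Without them 11 of 13 rose with shRNA1 (median 0.51), and 10 rose and 2 fell with shRNA2 (median 0.34). *Dazl*, an RNA-binding protein of germ cells, rose by 0.70 and 0.74 with shRNA1 and shRNA2 (adjusted p = 1.2e-06 and 8.1e-08 by edgeR), and *Sycp1*, a protein of the synaptonemal complex, by 0.83 and 0.66 (adjusted p = 9.1e-06 and 2.7e-05). *Tdrd1*, a Tudor protein of the piRNA pathway, fell with shRNA2 (-0.54, adjusted p = 0.00132) and did not pass with shRNA1 (0.17, adjusted p = 0.323).

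CAF-1 works at replication forks, and genes of S phase were listed for that reason. Of 20, 2 rose and 4 fell with shRNA1, and 5 rose and 4 fell with shRNA2. The shares called were 30% and 45%, against 30.9% and 55.9% of all genes. With library size alone the split was 4 higher and 3 lower with shRNA1, and 7 higher and 3 lower with shRNA2. The 20 genes summed to 4132 and 4245 normalized CPM with nt-shRNA, to between 3823 and 3990 with shRNA1, below both controls, and to between 4032 and 4327 with shRNA2. *Gins2*, a subunit of the replicative helicase, fell by 0.49 and by 0.64 on the log2 scale with shRNA1 and shRNA2 (adjusted p = 2.2e-05 and 1.8e-07 by edgeR). *Tyms*, thymidylate synthase, rose by 1.20 with shRNA2 (adjusted p = 9.2e-08) and had 0.30 with shRNA1 (adjusted p = 0.0672).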
